A study of Bos taurus with 12 samples.

Results

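A list of 9 genes of the red cell lineage was followed in calf liver: the globins HBB and HBM, the erythroid haem enzyme ALAS2, the globin chaperone AHSP, the membrane proteins SLC4A1 and EPB42, and the nuclear proteins KLF1, GATA1 and HEMGN. They were taken as a list of symbols and matched to the Entrez gene IDs of the count files through a bovine RefSeq gene table. All 9 symbols matched, out of 30336 gene IDs counted. Together they took 29591 of the 112698289 reads counted over the 12 libraries.

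The fetal liver is a site of red cell formation, which moves to the bone marrow around birth. In an erythroblast, GATA1 and KLF1 switch on the globin genes and the genes of haem synthesis, ALAS2 makes the first haem precursor, AHSP holds free alpha globin, and SLC4A1 (band 3) with EPB42 (protein 4.2) ties the membrane to its skeleton. Reticulocytes, the last stage before the red cell, have lost the nucleus but still carry globin and ALAS2 mRNA.

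Liver was taken by puncture biopsy at 4 d of age from 12 Holstein heifer calves. The dams of 6 calves received a control close-up diet (CON) and those of the other 6 the same diet with ethyl-cellulose rumen-protected methionine (MET), in both cases over about the last 28 d of gestation. The calves of both groups were reared alike, and the study asked what maternal methionine does to the liver of the newborn. Polyadenylated RNA was read in one lane, and the first index of the libraries differed between the diets but not within them, so an effect of the index cannot be told apart from one of diet.

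The libraries held 8277789 to 10397604 counted reads, and a floor of 3 reads equalled 0.289 to 0.362 RPM, where RPM is reads scaled to a library total of 1000000. The chi-square between the libraries of CON replicates 1 and 4 was 1.31 per gene and that between MET replicates 1 and 3 was 1.23, close to sampling noise, while the other 64 pairs of libraries gave 23.3 to 122. The 2 libraries of such a pair were therefore taken as 1 sample, which left 5 samples per diet. Levels are given as CPM, which is RPM after TMM scaling, and a pair's CPM was averaged for means and SD.

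The set held the nuclear side of red cell formation only at very few reads. GATA1, on chromosome X (91978913 to 91986248, UMD 3.1.1), had 5 reads in all 12 libraries together, HEMGN on chromosome 8 had 13 and KLF1 on chromosome 7 had 21. GATA1 had no read in 9 libraries, and neither GATA1 nor HEMGN passed 3 reads in any library. The genes are therefore described by the list they came from, without calling them a population of liver erythroblasts. In these bulk biopsies, fewer cells and less RNA per cell cannot be told apart.

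HBB, the adult beta globin chain (chromosome 15, 49022978 to 49024620, plus strand), carried 79.3 to 97.1% of the reads of the list in each library. In CON replicates 1 to 6 it had 65, 7451, 3164, 46, 1124 and 3337 reads. In MET replicates 1 to 6 it had 4997, 572, 4315, 1390, 483 and 1301 reads. The low values were those of the near-identical CON pair, and the highest library stood 166-fold above the lowest in RPM. The mean level was 354 ± 359 CPM in CON and 168 ± 157 CPM in MET (SD, n = 5), so that within CON the SD exceeded the mean. Within the near-identical pairs, HBB differed by a chi-square of 2.51 in CON and of 25.7 in MET, so that in the MET pair this gene differed by more than counting noise.

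ALAS2, which makes the first precursor of haem in erythroid cells (chromosome X, 97908616 to 97936411, minus strand), went up and down with HBB. CON replicates 1 to 6 had 1, 174, 117, 0, 41 and 129 reads, and MET replicates 1 to 6 had 249, 32, 213, 36, 18 and 58 reads. The same CON pair was lowest, and the highest library was at least 72.7-fold above the floor of the library without a read. The mean was 10.6 ± 8.57 CPM in CON and 7.38 ± 8.10 CPM in MET (SD, n = 5). Its sister enzyme ALAS1, which supplies haem in most tissues, was far more abundant, with 544 ± 228 CPM in CON and 306 ± 106 CPM in MET.

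HBM, an alpha-like globin of the mu type (chromosome 25, 208739 to 209520, plus strand), was low, and in CON its high and low libraries were those of HBB. CON replicates 1 to 6 had 0, 22, 10, 0, 3 and 11 reads. MET replicates 1 to 6 had 7, 0, 4, 4, 3 and 7 reads. The 3 libraries without a read were both of the CON pair and MET replicate 2, while the most HBM reads in MET were in replicates 1 and 6. The means were 1.07 ± 1.07 CPM in CON and 0.406 ± 0.266 CPM in MET (SD, n = 5).

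AHSP, which binds alpha globin until it meets its beta partner (chromosome 25, 27800805 to 27802064, plus strand), had few reads in every library. CON replicates 1 to 6 had 11, 4, 6, 11, 4 and 6 reads, and MET replicates 1 to 6 had 12, 11, 7, 7, 4 and 14 reads. It was the only gene of the list besides HBB with more than 3 reads in every library. Its highest library was 3.59-fold above its lowest, and the CON pair that was lowest in HBB was highest within CON. The means were 0.692 ± 0.319 CPM in CON and 0.931 ± 0.365 CPM in MET (SD, n = 5).

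The membrane genes were near the floor. SLC4A1, the anion exchanger of the red cell (chromosome 19), had 0, 12, 5, 0, 0 and 13 reads in CON replicates 1 to 6 and 1, 3, 5, 4, 3 and 4 reads in MET replicates 1 to 6. EPB42, which anchors that exchanger (chromosome 10), had 0 to 4 reads per library and 21 reads in all. Of the nuclear proteins, KLF1 had 0 to 4 reads per library and HEMGN 0 to 3. With 3 reads or fewer in 10 of 12 libraries for EPB42 and 11 of 12 for KLF1, the level in a single library of these genes was near the limit of the depth.

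**Figure D1:**
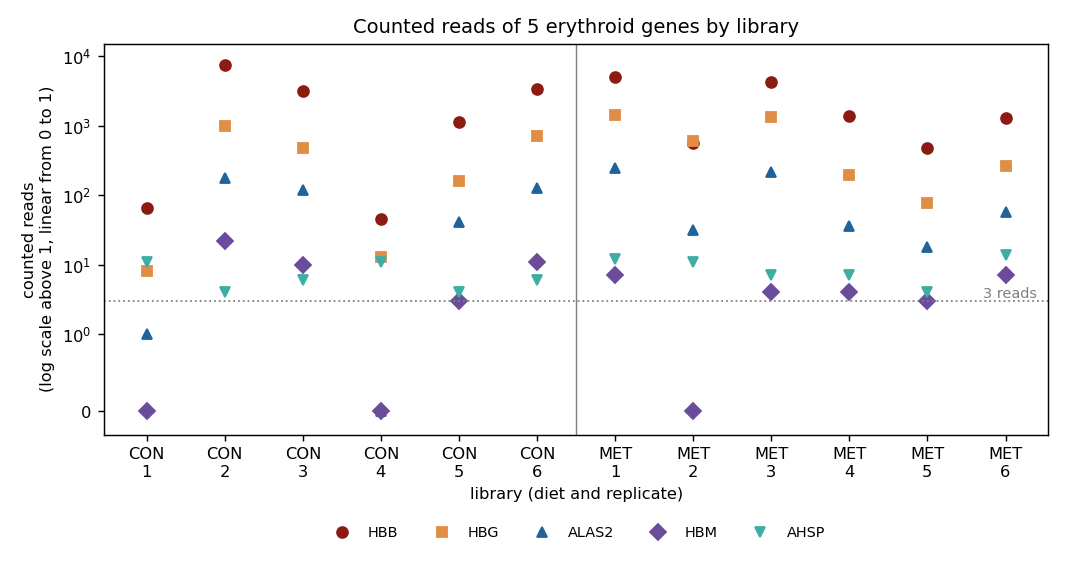
Counted reads of HBB, HBG, ALAS2, HBM and AHSP in each library, by diet and replicate number, on an axis that is logarithmic above 1 read and linear between 0 and 1; the dotted line marks 3 reads. HBB, HBG and ALAS2 are lowest in CON replicates 1 and 4, with 65 and 46 HBB reads, where AHSP has 11 reads in each.

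Per kilobase of exon, the mean over the 10 samples was 424 CPM for HBB, 3.48 for ALAS2, 1.95 for AHSP, 1.44 for HBM, 0.125 for KLF1, 0.112 for SLC4A1, 0.0866 for EPB42, 0.0863 for HEMGN and 0.0136 for GATA1. HBB was above ALAS2 in 10 of 10 samples. ALAS2 and AHSP did not keep an order, since each was the higher one in 5 samples. AHSP was above HBM in 7 samples, HBM above KLF1 in 8, and the neighbours from KLF1 down to HEMGN exchanged places between samples.

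**Figure D2:**
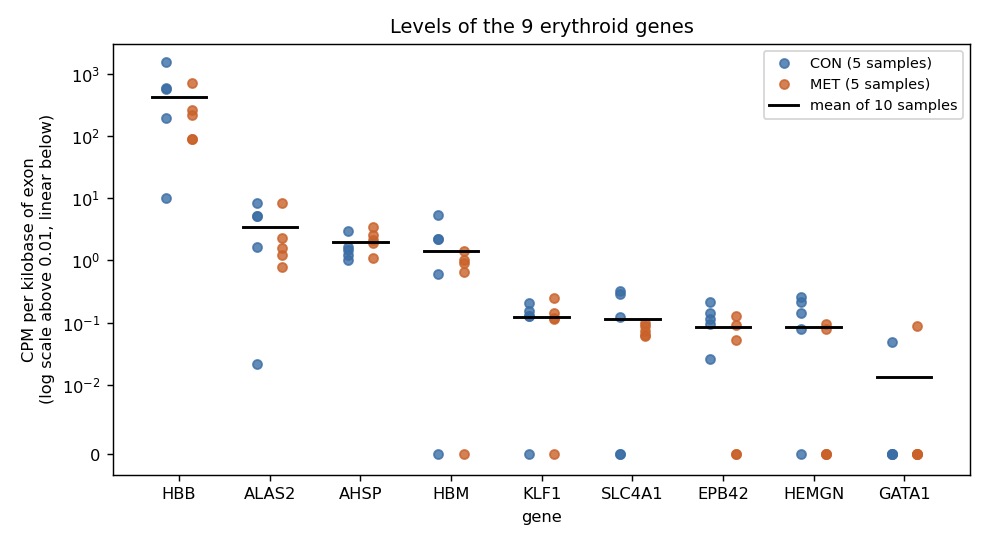
Level of each of the 9 genes in CPM per kilobase of exon, on an axis that is logarithmic above 0.01 and linear below, for the 5 CON and 5 MET samples with a bar at the mean of all 10. HBB, with a mean of 424, lies above every other gene in each sample, and 6 of the genes have a sample without a read.

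No gene of the list was called between the diets. On the 12 libraries, edgeR's quasi-likelihood test called 583 of 13212 genes at a false discovery rate (FDR) of at most 0.10, a background of 4.41%. Of the list, only HBB and ALAS2 passed the filter on low counts, and neither was called. HBB had a log2 fold change of MET over CON of -0.47 ± 0.95 (SE, FDR = 0.819, edgeR) and ALAS2 one of 0.16 ± 0.85 (FDR = 0.940, edgeR).

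The other 7 genes were taken from the same test over every gene with a read, where 238 of 21227 genes, or 1.12%, were called. None of the 7 was called, with edgeR's FDR between 0.551 for HBM, GATA1 and HEMGN and 0.885 for KLF1. On the 12 libraries the count of the list at an unadjusted p under 0.05 was also 0, a mark that 20.5% of the filtered genes and 14.8% of the genes with a read passed. Limma's voom called none of the 9 and DESeq2 neither HBB nor ALAS2, the only ones of the list to which it gave an adjusted p.

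Without both libraries of the CON pair, a comparison added after seeing the data, HBB, HBM and HEMGN passed an unadjusted p of 0.05 in edgeR's test over every gene with a read, as 11.0% of the genes did. None of them was called, with log2 fold changes of -1.36 (FDR = 0.437, edgeR), -1.63 (FDR = 0.383, edgeR) and -1.78 (FDR = 0.452, edgeR).

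With each near-identical pair counted once, edgeR called no gene at all (a background of 0%), against 2165 genes at an unadjusted p under 0.05 and 639 genes called by DESeq2. In that fit HBB had a log2 fold change of -1.07 (FDR = 0.581, edgeR) and ALAS2 one of -0.43 (FDR = 0.837, edgeR). The diets overlapped in all 9 genes over the 10 samples. Only 3.72% of the filtered genes had diets that did not overlap, so this says little about so short a list. HBM, KLF1, GATA1 and HEMGN, all below the filter, had samples without a read in both diets, so their overlap was fixed in advance.

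Exact two-sided permutation tests of mean log2 CPM over the 252 arrangements of the 10 samples gave p = 0.857 for HBB, where MET minus CON was -0.33. The exact p was 0.381 for HBM (-0.72), 0.270 for AHSP (0.35), 0.151 for EPB42 (-0.59) and 0.135 for HEMGN (-0.68). For SLC4A1 it was 0.825, and for ALAS2, KLF1 and GATA1 it was 1. The direction for HBB was not stable, since the log2 fold change was 0.35 without CON replicate 2 and 0.74 with voom, but -1.39 without the CON pair among the filtered genes. The width of these comparisons came from the spread between calves of 1 diet. For HBB over the 10 samples, the SD of log2 CPM within diets was 2.15, larger than the difference of -0.33 between them. Without the CON pair that SD was 1.24, beside the log2 fold change of -1.39.

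That spread was far above that of an ordinary liver gene. After each diet was centred on its mean, the SD of log2 CPM between samples was 2.15 for HBB and 2.08 for ALAS2, against a median of 0.289 over the 13212 filtered genes. HBB lay at the 99.8th percentile, and 28 genes had a larger SD. Without the CON pair the SD was 1.24 for HBB and 1.15 for ALAS2, still above 98.6% and 98.2% of the genes. Summed over the list, the level in RPM ranged from 6.37 to 861 between libraries, with 354 ± 329 in CON and 180 ± 175 in MET (SD, n = 5). Without CON replicate 2, the highest library, the CON mean was 227.

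ALAS2 followed HBB from calf to calf more closely than any other gene of the list. Over the 10 samples, Pearson's r of log2 CPM was 0.98 (permutation p = 1e-05, the smallest that the resamples allow, adjusted p = 8e-05 over 8 relations) and Spearman's rho was 0.95 (permutation p = 1e-04, adjusted p = 0.0008). Without the 2 samples farthest from the HBB median, which were the CON pair and CON replicate 2, r was 0.96 (exact permutation p = 0.000298, adjusted p = 0.00238).

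HBM also went with HBB, with r = 0.87 (permutation p = 0.00073, adjusted p = 0.00292) and rho = 0.86 (permutation p = 0.00231, adjusted p = 0.00924). Without the 2 farthest samples r was 0.77 (exact permutation p = 0.0187, adjusted p = 0.075), a loss of the call with fewer samples, and without the CON pair alone r was 0.86 (exact permutation p = 0.00296, adjusted p = 0.0118). HEMGN (r = 0.76, permutation adjusted p = 0.0205), SLC4A1 (r = 0.74, permutation adjusted p = 0.0284) and KLF1 (r = 0.70, permutation adjusted p = 0.0439) passed 0.05 over the 10 samples. Their rho was 0.74, 0.64 and 0.53, with permutation adjusted p of 0.0471, 0.0811 and 0.153. Without the 2 farthest samples r was 0.70, 0.42 and 0.49, and the exact permutation adjusted p was 0.148, 0.411 and 0.381. The relations of SLC4A1 and KLF1 therefore rested on those samples. HEMGN lost the call with little change of r, and without the CON pair alone its r was 0.80 (exact permutation adjusted p = 0.0305). Its rho did not pass in either setting, at 0.54 and 0.68 (exact permutation adjusted p = 0.357 and 0.107). HEMGN had 0 to 3 reads per library, so its relation rests on few reads.

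EPB42 had r = 0.61 (permutation adjusted p = 0.0745) and rho = 0.72 (permutation adjusted p = 0.0471), and GATA1, with 5 reads, r = 0.23 (permutation adjusted p = 0.458). AHSP showed no relation to HBB that passed the test, with r = -0.40 (permutation p = 0.253, adjusted p = 0.289) and rho = -0.18 (permutation p = 0.629, adjusted p = 0.629), and with r = 0.06 without the 2 farthest samples. Since several of these genes had few reads, ties at the floor share in their correlations. Counting error limits the relation of AHSP, which had 4 to 14 reads per library.

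**Figure D3:**
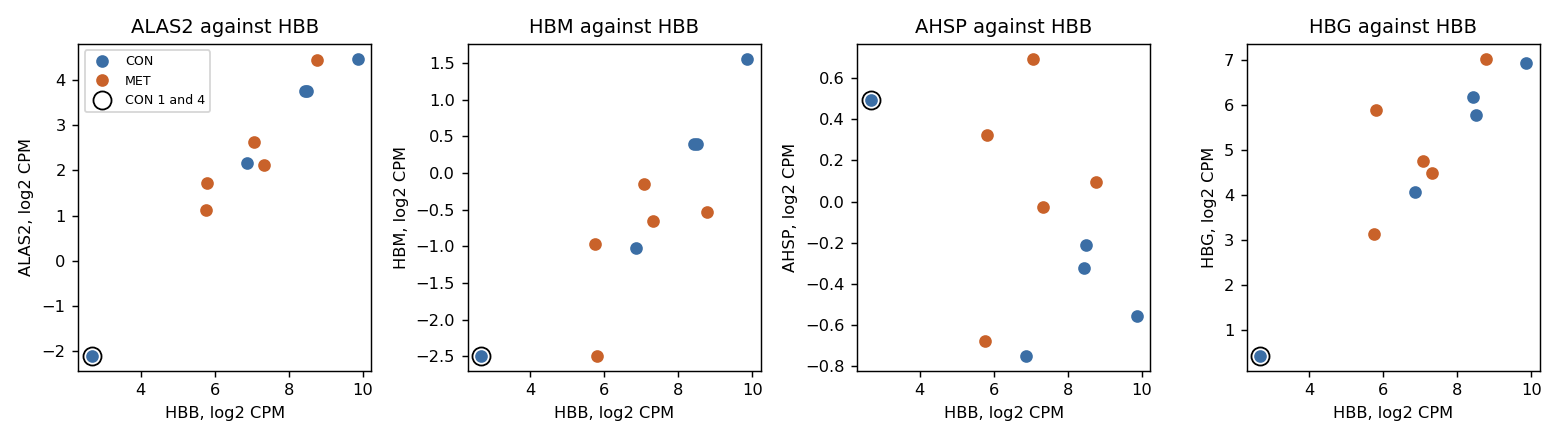
Level of ALAS2, HBM, AHSP and HBG against HBB in log2 CPM (prior count of 2), 1 point per sample and 10 samples in each panel, with the near-identical CON pair ringed. ALAS2 rises with HBB along the whole range (r = 0.98), while AHSP, with 4 to 14 reads per library, does not (r = -0.40).

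The second abundant globin of the biopsies was HBG, the fetal beta-type chain that HBB replaces around birth (chromosome 15, 49073121 to 49074735, plus strand). CON replicates 1 to 6 had 8, 976, 480, 13, 161 and 701 HBG reads, and MET replicates 1 to 6 had 1447, 611, 1333, 193, 77 and 260. The CON pair was again lowest, and the mean was 53.7 ± 48.1 CPM in CON and 49.5 ± 48.9 CPM in MET (SD, n = 5). HBG went with HBB over the 10 samples, with r = 0.90 (permutation p = 0.00103) and rho = 0.83 (permutation p = 0.00531), neither adjusted, and without the 2 farthest samples r was 0.69 (exact permutation p = 0.0643).

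The balance of the fetal and the adult chain was less variable than either level, with 1 exception. HBG made up 51.6% of the reads of both genes in MET replicate 2 (95% Wilson interval 48.8 to 54.5%, 1183 reads). In the other 11 libraries the share lay between 11.0% in CON replicate 1 (5.66 to 20.2%, 73 reads) and 23.6% in MET replicate 3 (22.5 to 24.7%, 5648 reads). The intervals cover counting error only.

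The mean share was 14.2 ± 2.55% in CON and 23.5 ± 16.3% in MET (SD, n = 5, exact permutation p = 0.214). ALAS2 made up 2.77 ± 1.26% of the ALAS2 and HBB reads in CON and 4.08 ± 1.07% in MET (SD, n = 5, exact permutation p = 0.103, or 0.0325 over the 12 libraries, where each pair counts as 2, and 0.222 without the CON pair). For HBG, without MET replicate 2 the difference of 9.23 percentage points came to 2.18 (exact permutation p = 0.460). HBB and HBG are similar in sequence, and reads that matched both were not counted, so the share describes the reads unique to each gene.

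**Figure D4:**
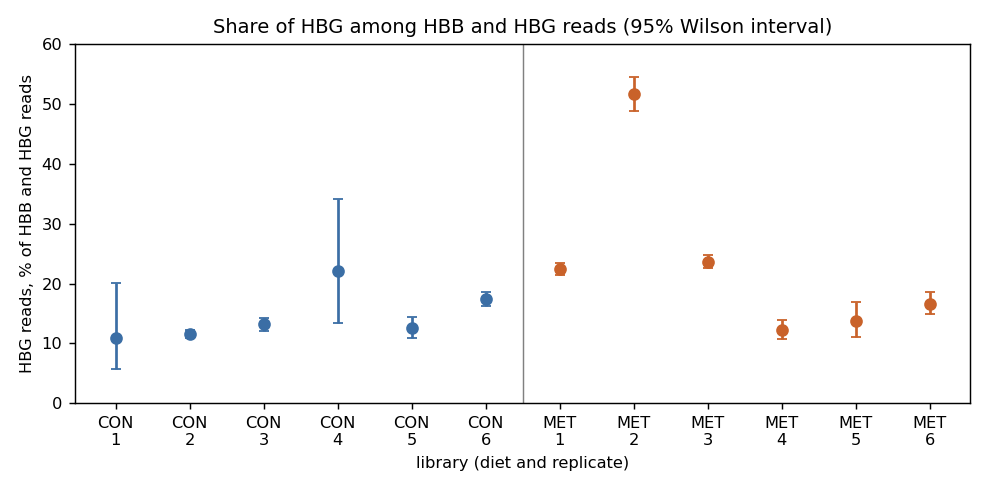
HBG reads in percent of the HBB and HBG reads of each library, by diet and replicate, with 95% Wilson intervals that cover counting error only. MET replicate 2 stands at 51.6%, and the other libraries lie between 11.0 and 23.6%.

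The alpha globins gave few reads, 45 for HBA and 19 for HBA1 over all libraries, against 28245 for HBB. The alpha genes are duplicated with nearly the same sequence, and reads matching several places were not counted, so the levels of alpha and beta chains cannot be compared here. The embryonic beta-type genes HBE1, HBE2 and HBE4 had no read, which at 3 reads allows at most 0.362 RPM in the shallowest library. HBZ, the embryonic alpha-type gene, had 2 reads in 1 library. HBQ1 (theta) had 9 to 49 reads and was unlike HBB, with a likeness of -0.13, defined here as Pearson's r over the 10 samples, after centring each diet, to the mean log2 CPM of HBB and ALAS2. Neither HBG nor HBQ1 was called between the diets.

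The wider red cell programme was counted over lists of genes with known roles, and the calls in each list stand beside the background of 4.41% of all filtered genes. Of 14 erythroid transcription factors 10 were tested, and 1 was called, SOX6, a repressor of fetal globin, at 10.6 ± 1.25 CPM in CON and 6.71 ± 1.19 in MET (log2 fold change -0.64, FDR = 0.0528, edgeR). The factors with the highest level per kilobase were LMO2 and LDB1, which join GATA1 in 1 complex, and KLF3, at 32.3, 40.3 and 41.2 CPM in CON and 34.4, 44.4 and 33.5 CPM in MET. The median log2 fold change of the 10 was 0.01, beside -0.0031 over all genes, and the median likeness to HBB and ALAS2 was -0.15, or 0.01 without the CON pair. Several of these factors are also used outside the red cell lineage.

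All 17 genes of haem synthesis were tested, and 1 was called: FECH, ferrochelatase, which puts iron into haem, with 18.8 ± 1.63 CPM in CON and 13.6 ± 1.67 CPM in MET (log2 fold change -0.42, FDR = 0.0719, edgeR). ALAD, ALAS1 and the mitochondrial iron carrier SLC25A28 were the most abundant per kilobase. The likeness of ALAD was 0.13 and that of ALAS1 -0.03, and the list ran from -0.78 for SLC25A37 to 0.77 for ABCB10, both of the inner mitochondrial membrane, with a median of 0.13. These ends were chosen after their values were seen. Hepatocytes make haem as well.

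Of 20 red cell membrane genes found, 8 were tested and none was called. Their median likeness to HBB and ALAS2 was -0.11, or -0.16 without the CON pair. GYPC, EPB41 and the transporter XK led by level, at 16.2, 28.2 and 27.3 CPM in CON and 18.9, 22.4 and 24.7 CPM in MET. Of the late erythroid genes 12 were tested and 2 called, FECH and BNIP3L, which removes mitochondria from maturing red cells, at 114 ± 9.64 CPM in CON and 91.1 ± 5.25 CPM in MET (log2 fold change -0.30, FDR = 0.0891, edgeR). BSG, BLVRB and PRDX2 were the most abundant per kilobase, and CA1, carbonic anhydrase of red cells, had no read. The late genes had a median likeness of 0.20, or 0.11 without the CON pair.

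Of the genes for erythropoietin and iron uptake signalling 12 were tested and none was called. Their median likeness was 0.02 with and without the CON pair. HAMP (hepcidin) led per kilobase and ranged from 1 to 1499 reads, with 3.08 ± 3.81 CPM in CON and 51.2 ± 57.4 CPM in MET (log2 fold change 3.56 ± 1.16 SE, FDR = 0.120, edgeR). The iron exporter SLC40A1 and the transferrin receptor TFR2 had 212 and 115 CPM in CON and 189 and 123 CPM in MET. Over the 10 samples none of SOX6, FECH and BNIP3L was called, with FDR of 0.174, 0.175 and 0.195 by edgeR.

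Platelets and dividing cells were the lists with the highest median likeness to HBB and ALAS2. The tested platelet genes had a median likeness of 0.74, or 0.52 without the CON pair, beside 0.002 over all genes. TUBB1, the tubulin of platelets, had 8 and 10 reads in CON replicates 1 and 4 and 10 to 60 in the other libraries, GP1BA had 45 and 39 against 61 to 172, and PF4 had 6 and 12 against 7 to 53. Summed over the platelet list, levels were 85.4 to 108 RPM in CON and 59.0 to 121 RPM in MET. The CON pair lay at 88.1 RPM, not the lowest CON value. The defining marker GP6 had no read, and ITGB3 and ITGA2B, the most abundant with PF4, had a likeness of -0.16 and -0.15. TUBB1 and ITGA2B were chosen after their values were seen.

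The 12 genes of dividing cells had a median likeness of 0.54, or 0.62 without the CON pair, and 3 of the 12 were called, beside 4.41% of all filtered genes, each lower in MET: CCNB1 (log2 fold change -1.85, FDR = 0.0719, edgeR), CDK1 (-1.66, FDR = 0.0766, edgeR) and TYMS (-0.59, FDR = 0.0849, edgeR). Their summed level was 50.7 to 145 RPM in CON, lowest in the pair, and 29.5 to 58.9 RPM in MET. TYMS and PLK1 led per kilobase, with a likeness of 0.28 and -0.14. Over the 10 samples none of these 3 was called, with FDR of 0.172, 0.174 and 0.175 by edgeR. The part of platelets or of dividing cells in the spread of HBB was not tested.

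The lists of other cell types had medians nearer 0. The median likeness was -0.19 for 5 genes of haematopoietic progenitors (CD38 and CD34 most abundant), 0.07 for 6 of neutrophils (S100A12 and S100A9), -0.32 for 8 of T and NK cells (NKG7 and CD3E) and 0.05 for 3 of B and plasma cells (JCHAIN and CD22). It was 0.21 for 13 of macrophages and 0.06 for 10 of hepatocytes (ALB and TF). These medians rested on the CON pair, since without it they were, in the same order, 0.19, 0.20, -0.0021, -0.37, 0.0036 and 0.32. None of the genes of these lists was called, except C1QB and C1QC of macrophages, which were higher in MET (log2 fold change 0.39 and 0.41, FDR = 0.0855 and 0.0571, edgeR) and were not called over the 10 samples (FDR = 0.213 and 0.175, edgeR). MARCO, the most abundant macrophage marker, had a likeness of 0.76, or 0.47 without the CON pair. In summed level the CON pair lay at 1480 RPM for macrophages, the lowest CON value, and at 36.9 RPM for T and NK cells, the highest. In the progenitor list SPINK2B had no read.

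**Figure D5:**
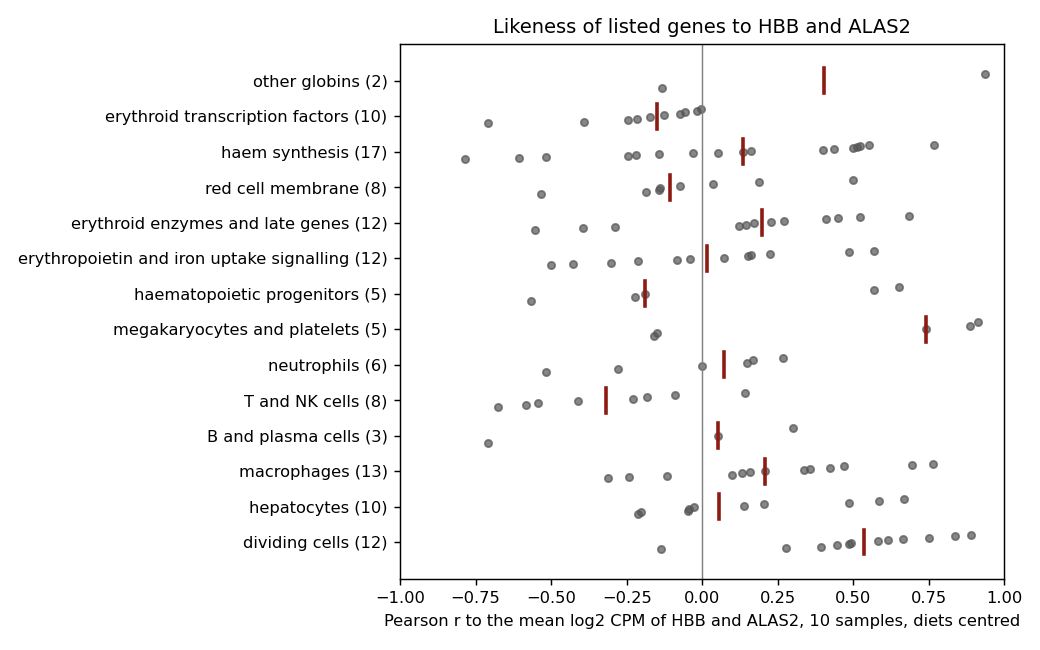
Pearson's r of each tested gene to the mean log2 CPM of HBB and ALAS2 over the 10 samples with each diet centred, grouped by list with the number of genes in brackets; red bars mark the medians. The medians are highest for platelets (0.74) and dividing cells (0.54), against 0.002 over all 13212 genes.

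Across all 13212 filtered genes, 10 others had a likeness above 0.90. They were FOLR1, a folate receptor (0.94), HBG (0.94), the mitotic kinesin KIF20A (0.92), LOC768255 (0.92), the platelet receptor GP1BA (0.91), LLPH (0.91), the immune GTPase GIMAP4 (0.91), ERGIC1 (0.91), the spindle protein NUSAP1 (0.90) and the hyaluronidase HYAL2 (0.90). None of them was called between the diets. Without the CON pair their values were 0.65 to 0.87 and their ranks 22 to 398, so that the order of this list rested on that pair, and the 10 were picked as the highest of many.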

How the data were processed

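The authors trimmed the single-end reads, used STAR 2.5.3a against the cattle genome UMD 3.1.1 and counted with featureCounts (Subread 1.5.2). They deposited raw read counts per Entrez gene ID for each of the 12 libraries. Per the file headers, counting was by strand over exons, and reads matching several places or several genes were left out, which lowers genes with near-identical copies such as the alpha globins. No member overlapped the exons of another gene.

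Symbols came from a RefSeq table of a later assembly (ARS-UCD2.0), which named 25105 of 30336 IDs, and coordinates came from the files. The genes of the list and the other lists were chosen with earlier results of these data known, as were the tests. Diets were compared with edgeR 4.0.16 in R 4.3.3 (quasi-likelihood test, TMM, default filter with a minimum count of 10, diet alone, Benjamini-Hochberg, FDR at most 0.10), on 12 libraries after the study's methods. Beside it stand 10 samples, with the reads of a near-identical pair summed. Nothing in the sources used here says why those libraries are alike.

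For 1 gene at a time, an exact permutation test (two-sided) was made of log2 CPM, to which a prior count of 2 was added. Correlations over 10 samples used 100000 resamples, and over fewer samples every arrangement. DESeq2 1.42.0, limma 3.58.1 and the other alternatives are given at the end. The edgeR step was tested on simulated counts. Genes named from the lists were those called and, by mean level per kilobase, the top 3 of an erythroid list or top 2 of another cell type with any defining marker without a read, and the 10 genes of highest likeness to HBB and ALAS2. Beyond that rule all other globins and CA1, which had no read, are named, and further exceptions are given as such. Likeness to HBB and ALAS2 carries no test. Sequences of promoters and proteins were not analysed here. Genes of the lists that are not named enter only counts, sums and medians, and results that need certain genes are not reported here.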

Additional observations from a re-analysis of the deposited data

Results flagged for a closer look

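Over 24 groups of 5 samples (the 9 genes, HBG, the share of HBG among HBB and HBG reads and that of ALAS2 among ALAS2 and HBB reads, by diet), 4 values stood apart from the rest of their group by Dixon's test with a critical value of 0.71. Chance alone gives about 1 such value in 20 groups, a rate that does not apply to genes with few reads and samples at 0, KLF1 among them. In GATA1 a single sample with a read among samples at 0 always stands apart. The share of HBG among HBB and HBG reads was 51.6% in MET replicate 2, against 12.2 to 23.0% in the other MET samples. The other 3 values rested on few reads. KLF1 was at 0 CPM in CON replicates 1 and 4, against 0.208 to 0.343 CPM in the other CON samples. GATA1 was at 0.104 CPM, a single read, in CON replicate 5 and at 0.188 CPM, 2 reads in each library, in MET replicates 1 and 3, and all other samples of both diets were at 0.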

How the results depend on the processing

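No gene of the list was called under any of the alternatives, and the lowest FDR that any of them had was 0.353. The number of all genes called, 583, was 107 with library totals only, 1314 with DESeq2, 238 with every gene with a read, 0 with each near-identical pair counted once by edgeR (DESeq2 639) and 0 without both libraries of the CON pair. DESeq2 on 10 samples and the alternatives without the CON pair were added after seeing the data. It was 26 to 565 with 1 library left out, lowest without CON replicate 1 (26) or 4 (35).

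With the replicate number as a block 6 genes were called and no gene of the list. The labels name no pairing of calves by number, and none was seen. The correlation of samples with the same number was -0.19 to 0.15, and 0 of 6 matched best with their own number.

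Directions turned as follows. The log2 fold change of HBB was 0.74 with voom, 0.25 with the block, -1.39 without the CON pair and -0.86 to 0.35 with 1 library left out. That of ALAS2 was -0.43 with the pairs counted once, -0.51 with DESeq2 on those samples, -0.77 without the CON pair and -0.29 to 0.65 with 1 library left out. SLC4A1 had 0.57 with voom, and KLF1 had -0.26 without the CON pair and -0.037 to 0.57 with 1 library left out. The differences of the exact tests on 12 libraries were 0.75 for HBB, 1.04 for ALAS2, 0.045 for SLC4A1 and 0.14 for KLF1, and with a prior count of 0.5 they were 0.21 for ALAS2 and 0.37 for SLC4A1. Others kept their direction but moved in size. On 12 libraries the difference was -0.30 for HBM, 0.21 for AHSP, -0.29 for EPB42 and -0.38 for HEMGN. With a prior count of 0.5 it was -1.15 for EPB42 and -1.34 for HEMGN. On 12 libraries the CON pair counts as 2. The summed level was 13.5 RPM in CON and 9.71 RPM in MET without HBB, and 227 to 411 RPM in CON with 1 library left out, lowest without CON replicate 2.

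For the relations to HBB, r without the 2 farthest samples was 0.77 for HBM, 0.063 for AHSP, 0.42 for SLC4A1, 0.49 for KLF1 and 0.70 for HEMGN, where fewer samples are tested. Without the CON pair it was 0.62 for SLC4A1 and 0.45 for KLF1, which lost the call. On the same samples r was 0.96 for ALAS2, 0.86 for HBM and 0.80 for HEMGN, which kept it. The rho of HEMGN did not pass there (0.68, exact permutation adjusted p = 0.107). EPB42 passed with each diet centred (r = 0.66). Depth limits the 7 genes below the filter.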
